A study of Mus musculus with 16 samples.

Results

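Cell cycle and DNA replication genes were followed in brown adipocytes in which lipolysis was triggered by a synthetic ligand. The 32 genes were chosen by symbol, for their known roles in licensing and copying DNA, in mitosis, as cyclins and as inhibitors of cyclin-dependent kinases, from the 20295 genes of the count table. All 32 were in the table and passed the filter on low counts, as 12786 genes did.

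The cells were a mouse brown preadipocyte line, of genotype WT, that had been made immortal with the large T antigen of SV40 and was used on day 7 of differentiation into adipocytes. Large T antigen binds the retinoblastoma protein and p53, and every group carries it. SR-3420 is a ligand of ABHD5, the partner protein of the lipase ATGL, and was given for 3 h; its dose is 10 µM in the sample labels and higher in the study's descriptions of these treatments. Triacsin C (TC), an inhibitor of long-chain acyl-CoA synthetases, was given at 5 µM, and etomoxir (ETO), an inhibitor of carnitine palmitoyltransferase 1, at 50 µM, each from 1 h before.

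There were 6 groups: vehicle (2 samples, replicates 2 and 3), SR-3420 alone (2 samples, replicates 1 and 3), and 3 samples each of TC, TC with SR-3420 (TC+SR-3420), ETO, and ETO with SR-3420 (ETO+SR-3420). The study's methods describe independent experiments. RNA-seq totals ran from 9452861 counts (TC replicate 1) to 25670624 counts (ETO+SR-3420 replicate 1). Levels are given as CPM (TMM-normalised counts scaled to a common library size), and fold changes as log2 with their standard error (SE). A gene was called when the edgeR quasi-likelihood test gave an adjusted p under 0.05 after Benjamini-Hochberg adjustment over the 12786 genes.

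Before a cell copies its DNA, the origin recognition complex, Cdc6 and Cdt1 load the Mcm helicase onto origins, while D- and E-type cyclins with their kinases release E2F factors from the retinoblastoma protein. E2F factors drive the genes of licensing, nucleotide supply and DNA synthesis. Genes of mitosis come later, under the B-Myb, MuvB and FoxM1 complexes, and p21 (Cdkn1a) and p27 (Cdkn1b) restrain the kinases. Preadipocytes can divide shortly after the hormonal start of differentiation and then leave the cycle, and mature adipocytes rarely divide.

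The label of brown adipocyte was checked against 15 markers, and common fat markers were abundant. Fabp4, a fatty acid carrier of adipocytes and the most abundant of the 15, lay between 3025 CPM (TC+SR-3420 replicate 1) and 9219 CPM (TC replicate 3). Of the markers of thermogenic fat, Ucp1, the uncoupling protein that defines brown fat, lay between 0.461 and 3.66 CPM, and Dio2, which activates thyroid hormone, reached at most 0.127 CPM. Others were detected in every sample: Ppargc1a between 22.2 and 85.7 CPM, Ppara between 19.8 and 123 CPM, Cidea between 8.28 and 35.3 CPM and Elovl3 between 7.84 and 18.4 CPM. Of the 15 markers of preadipocytes and fibroblasts 14 had a mean above 1 CPM, with Vim, an intermediate filament protein, as the most abundant.

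Those markers moved with SR-3420. The summed level of the preadipocyte and fibroblast list was 5453 and 4663 CPM with vehicle and 10990 and 8240 CPM with SR-3420. It was 7083, 6793 and 5915 CPM with TC and 12058, 10475 and 8738 CPM with TC+SR-3420, and 6177, 4794 and 3548 CPM with ETO and 12006, 9619 and 6796 CPM with ETO+SR-3420. The brown adipocyte list summed to 25411 and 22496 CPM with vehicle and 20179 and 16943 CPM with SR-3420. The sums were 23546, 26049 and 24232 CPM with TC, 10350, 10070 and 10451 CPM with TC+SR-3420, 24098, 22222 and 24222 CPM with ETO, and 13901, 9571 and 16280 CPM with ETO+SR-3420. In each arm the sum in every sample with SR-3420 was above that in every sample without it for the first list and below it for the second. Of the 14 tested genes of the first list, edgeR called 2, 6 and 11 higher (no inhibitor, TC, ETO) and none lower, and of the 14 tested brown adipocyte markers it called 1, 10 and 7 lower and none higher. The median log2 fold change was 0.72, 0.55 and 0.84 for the first list and -0.078, -1.02 and -0.65 for the second. Abundant markers such as Fabp4, Lpl and Adipoq carry the second sum, and without inhibitor Ppara, Ppargc1a, Elovl3 and Ucp1 went the other way, each higher in both SR-3420 samples than in either vehicle sample. Ppara was at 91.9 and 81.7 CPM with vehicle and 123 and 113 CPM with SR-3420. Of all genes tested, 4.75%, 17.3% and 12.5% were called higher in these arms and 2.79%, 19.7% and 12.8% lower.

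Markers of other cell types were detected, and whether such cells were present was not tested. Smooth muscle and pericyte markers, led by Acta2, summed to 579 to 2000 CPM, and edgeR called 1, 1 and 4 of 5 higher with SR-3420 in the 3 arms and 1 lower in the ETO arm. The lists of skeletal muscle (led by Des), macrophages (led by Cd68) and endothelium (led by Kdr) summed to at most 18.8, 18.5 and 3.58 CPM. With SR-3420, edgeR called 1 of 3 tested skeletal muscle markers lower under TC and under ETO, and 1 of 2 macrophage markers lower under TC. The 1 tested endothelial marker was called higher under TC (0.96) and ETO (1.28). No marker of these lists was called without inhibitor. No marker of the 6 lists was at 0 in all 16 samples, though Myf5, which marks muscle precursors, was at 0 in 15 of them. In these bulk samples a change in the share of undifferentiated cells and a change in RNA per cell cannot be told apart, and the part of the marker shift in the results that follow was not tested.

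Libraries also differed in how they leaned to transcripts rich or poor in G and C. For each library, the deviation of each member from its mean over the 16 libraries was set against the GC content of its longest coding transcript, which ran from 36.3% (Ccne2) to 58.8% (Cdt1). Pearson's r over the 32 members was 0.78 in SR-3420 replicate 1, 0.74 in ETO+SR-3420 replicate 1, 0.72 in ETO replicate 1 and 0.70 in TC replicate 2. It was -0.84 in ETO+SR-3420 replicate 3, -0.78 in ETO replicate 3, -0.74 in TC+SR-3420 replicate 3 and -0.60 in vehicle replicate 3. These are descriptions across genes, which are not independent, and the same sign was seen over all 12641 tested genes with a GC content in each of these 8 libraries (0.63 to -0.70). The 4 libraries with these negative values were all replicate 3. Vehicle (0.60 in replicate 2) and each of the ETO groups held a library of either lean, but SR-3420 replicate 3 was at 0.021, so that group held no GC-poor library. TC was at 0.087 and -0.11 in its other replicates, and TC+SR-3420 at 0.50 and 0.14. Whether the lean differed between groups was not tested. GC-poor members such as Ccne2 and Bub1 spread widely within a group, in the opposite order to GC-rich members such as Mcm2 and Cdt1.

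**Figure D1:**
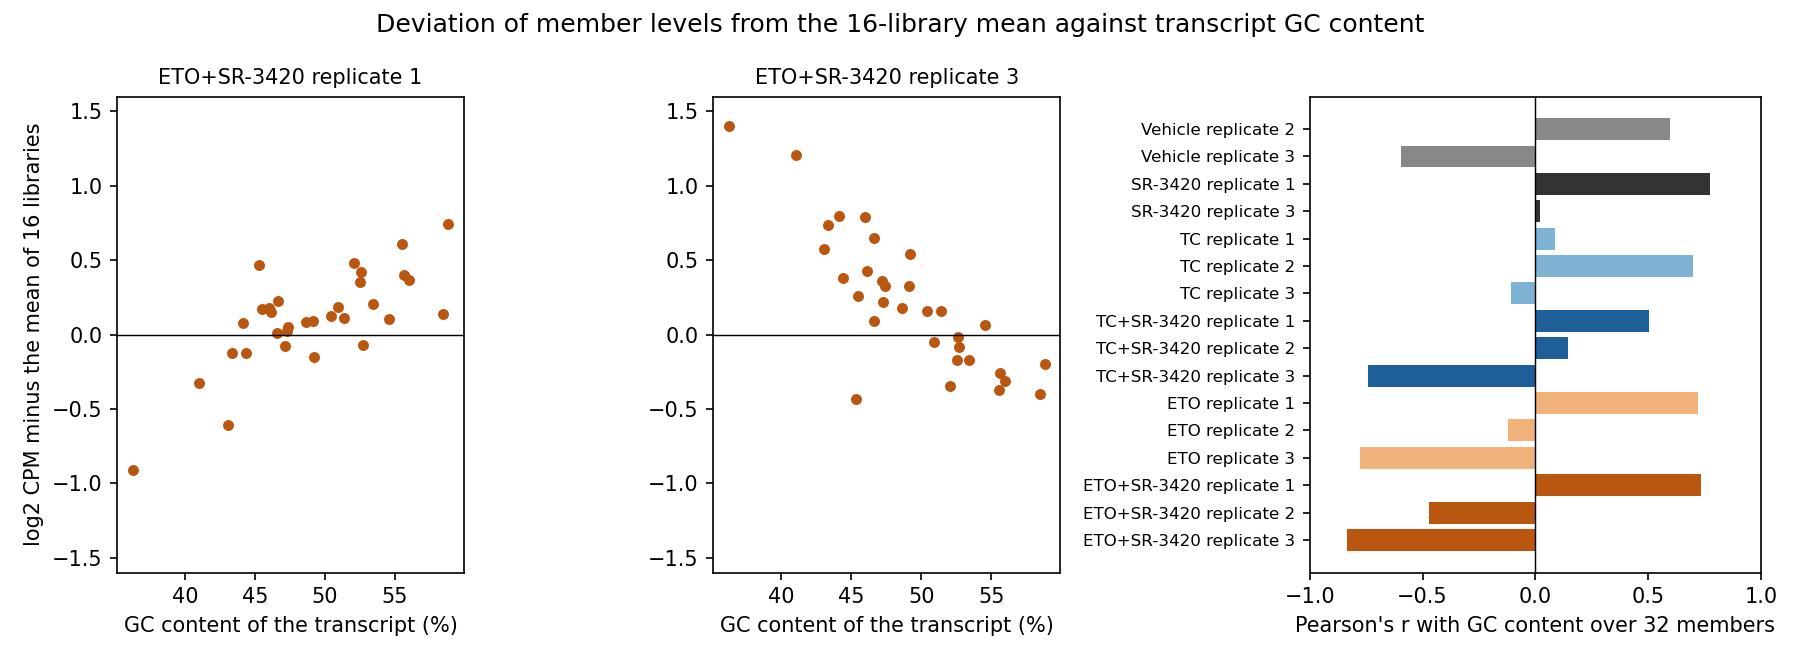
Deviation of the 32 members (log2 CPM minus the mean of 16 libraries, each point a gene) against the GC content of the transcript in ETO+SR-3420 replicates 1 and 3, and Pearson's r for each of the 16 libraries, coloured by group. Both libraries are of the same group, yet r was 0.74 in replicate 1 and -0.84 in replicate 3.

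The first question was whether the ligand changed these genes in each of the inhibitor arms. With SR-3420 against vehicle, edgeR called 4 of the 32 members higher (Mcm3, Tyms, Ccnd2 and Cdkn1a) and 0 lower, where 4.75% of all genes tested were called higher and 2.79% lower. In TC+SR-3420 against TC, 10 were called higher and 1 lower, against 17.3% and 19.7% of all genes. In ETO+SR-3420 against ETO, 15 were called higher and 0 lower, against 12.5% and 12.8% of all genes. The median log2 fold change of the members was 0.26, 0.43 and 0.53 in the 3 arms, and that of all genes tested -0.0038, 0.019 and 0.0094.

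Mcm3 and Tyms were called higher in each of the 3 arms, and 28 of the 32 members had a positive log2 fold change in all of them. Shares of all genes meeting these conditions were not computed, so these counts have no background to be read against. Every SR-3420 sample was above every control sample for 17 members without inhibitor, 21 under TC and 17 under ETO, where 22.8%, 27.4% and 15.8% of all genes were separated that way. With an offset for GC content, added after the data were seen, edgeR called 10 members (9 higher, 24.0% of all genes called in either direction), 26 members (24 higher, 55.7%) and 28 members (26 higher, 47.0%). The offset lowered the median SE of the members from 0.23 to 0.14, from 0.19 to 0.11 and from 0.19 to 0.11. It also removes any true trend with GC content that a group may have.

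Single libraries moved these counts. The 4 calls without inhibitor became 0 without vehicle replicate 3 or without SR-3420 replicate 1, 1 without vehicle replicate 2 and 2 without SR-3420 replicate 3, fits in which a lone sample is assumed to vary like the other groups. The 11 calls under TC (4722 of 12786 genes) became 7 without TC replicate 2 (3506 of 12667 genes), TC replicate 3 (3799 of 12773 genes) or TC+SR-3420 replicate 2 (3906 of 12791 genes). The 15 under ETO (3234 of 12786 genes) became 8 without ETO+SR-3420 replicate 2 (1989 of 12802 genes). Fitted on the compared groups alone, edgeR called 0 members without inhibitor (46 of 12162 genes), 20 under TC (5603 of 12195 genes) and 2 under ETO (1205 of 12167 genes). Without a filter on low counts it called 2 members without inhibitor (700 of 18777 genes).

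**Figure D2:**
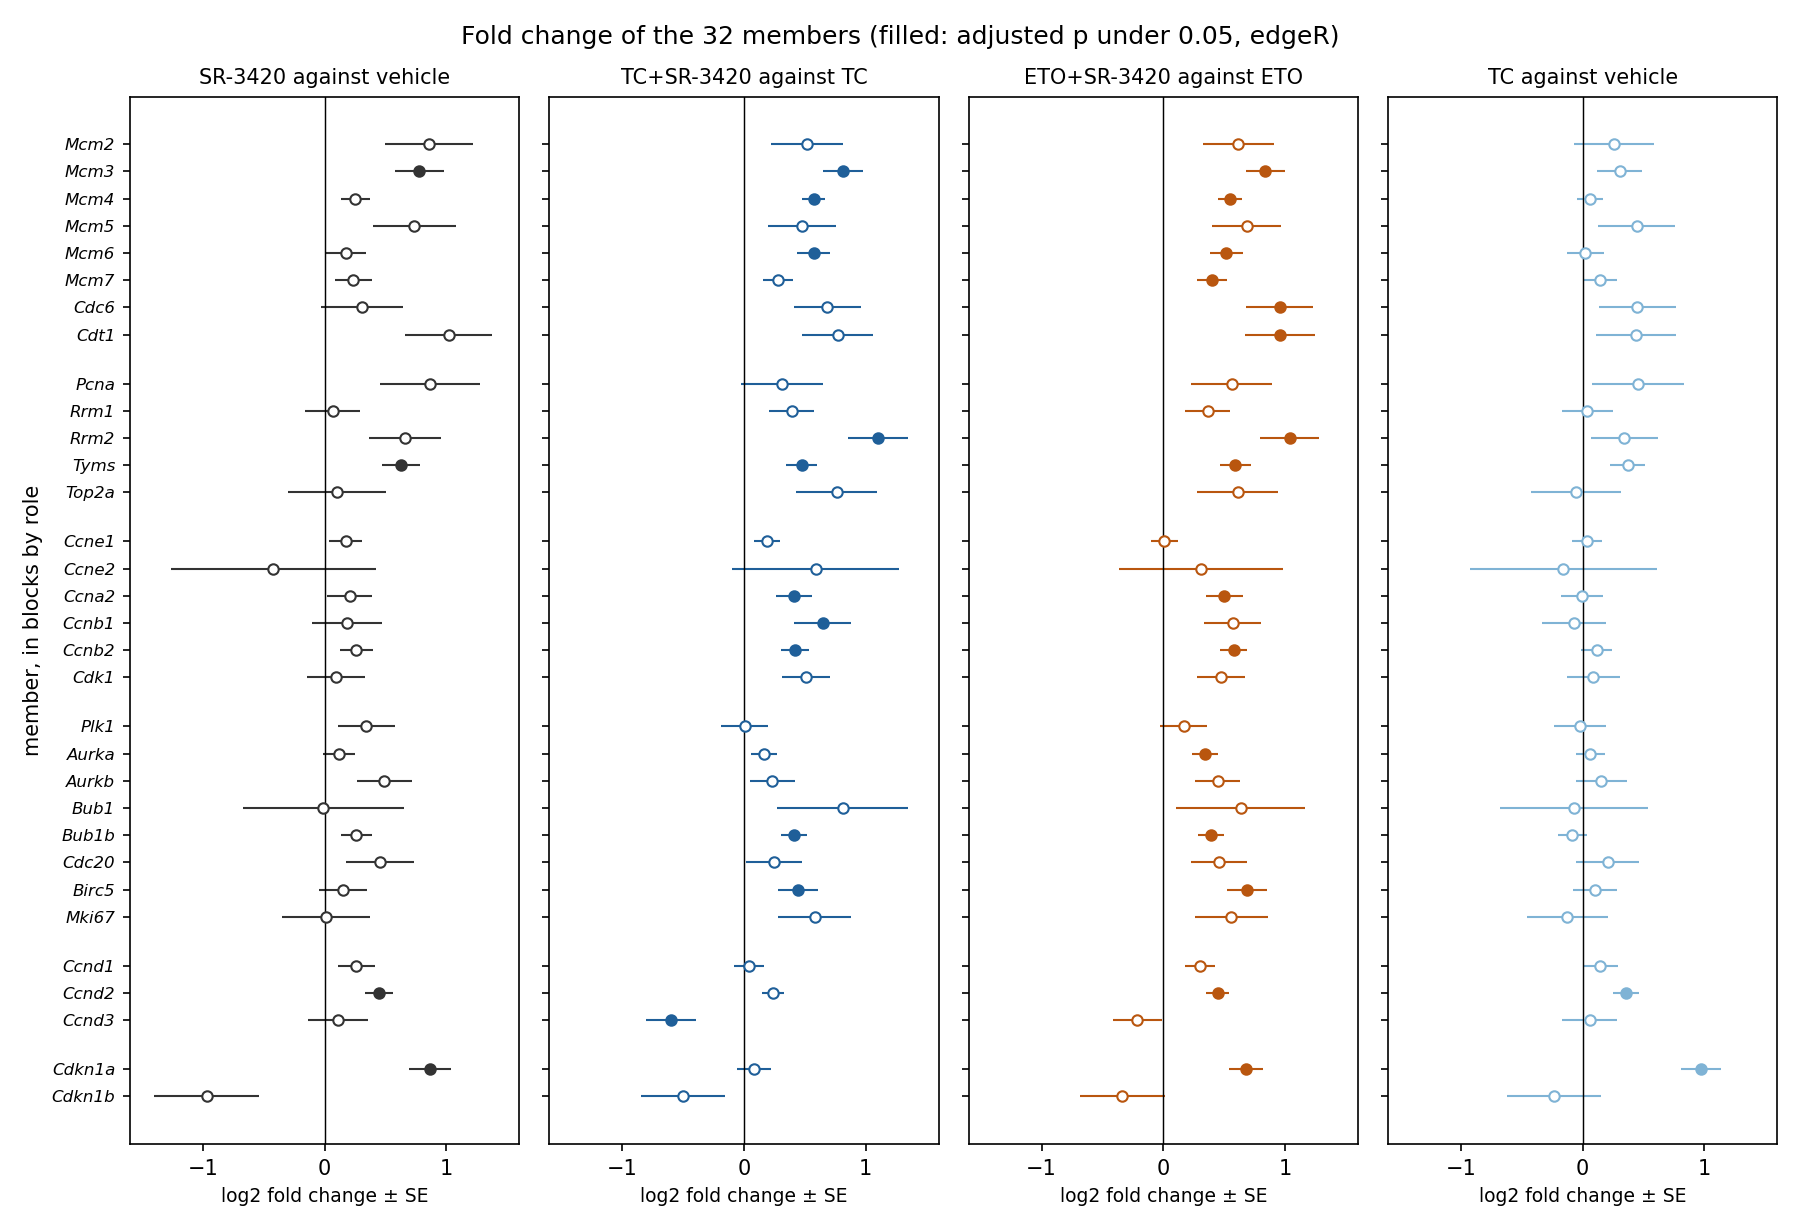
Log2 fold change of the 32 members (points; bars are 1 SE, from edgeR) in 4 comparisons, in blocks by role, filled where the adjusted p was under 0.05. In ETO+SR-3420 against ETO, 15 members were called, and Rrm2 had the highest value without the GC offset, 1.04.

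Genes that license origins were called in each arm. Of these 8 members, Mcm2 to Mcm7 being the subunits of the replicative helicase and Cdc6 and Cdt1 its loaders, 1, 3 and 6 were called higher in the no-inhibitor, TC and ETO arms, where 4.75%, 17.3% and 12.5% of all genes were, and all 8 had positive values in each arm. The median log2 fold changes were 0.52, 0.57 and 0.65. Near their start sites Mcm3 to Mcm7 carried short E2F-type letters and Mcm2 did not, while all 6 Mcm genes carried NF-Y-type letters. Of the windows of all genes, 3.02% held the first type and 38.1% the second. The sequences near some start sites are given before the values.

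Sequence was read from the mm9 genome around the start site given for each gene, from 250 bases before it to 50 bases within it. The letters searched on both strands were TTTCCCGC, TTTCGCGC, TTTGCCGC and TTTGGCGC (E2F-type), TTTGAA (the CHR of mitotic genes) and CCAAT (NF-Y-type). E2F-type letters were found in 8 of the 32 members (Mcm3, Mcm4, Mcm5, Mcm6, Mcm7, Cdc6, Cdt1 and Cdk1) and in 3.02% of the windows of all 20295 genes. CHR letters were found in 11 members and 15.1% of all windows, and NF-Y-type letters in 24 members and 38.1% of all windows. Of the 11 members with CHR letters, 10 also held NF-Y-type letters, and these never overlapped; E2F-type matches overlapped each other in Mcm5 and Mcm6 and an NF-Y-type match in Mcm7. The following stretches run from 150 bases before the start site to 30 within it, 5′ to 3′ on the gene's strand, with the matches in capitals; they show 2 of the licensing genes called in more than 1 arm, the nucleotide gene with the highest fold change and cyclins of later phases.
Mcm3 (chr1:20810265-20810444, minus strand): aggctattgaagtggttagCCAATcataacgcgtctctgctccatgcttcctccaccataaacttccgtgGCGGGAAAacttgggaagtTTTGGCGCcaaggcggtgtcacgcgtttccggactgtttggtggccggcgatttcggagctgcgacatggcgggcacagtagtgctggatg
Mcm4 (chr16:15637464-15637643, minus strand): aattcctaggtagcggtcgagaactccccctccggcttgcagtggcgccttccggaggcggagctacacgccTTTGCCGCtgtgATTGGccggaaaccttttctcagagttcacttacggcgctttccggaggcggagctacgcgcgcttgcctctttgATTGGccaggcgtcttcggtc
Rrm2 (chr12:25392969-25393148, plus strand): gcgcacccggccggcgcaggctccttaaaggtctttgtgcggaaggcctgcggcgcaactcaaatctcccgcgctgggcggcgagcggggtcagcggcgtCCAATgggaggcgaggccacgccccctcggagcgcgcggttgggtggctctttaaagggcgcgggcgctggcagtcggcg
Ccna2 (chr3:36470889-36471068, minus strand): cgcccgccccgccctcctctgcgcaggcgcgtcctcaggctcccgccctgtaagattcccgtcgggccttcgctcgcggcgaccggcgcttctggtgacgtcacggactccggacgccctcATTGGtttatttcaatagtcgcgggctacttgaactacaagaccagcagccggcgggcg
Ccnb2 (chr9:70269332-70269511, minus strand): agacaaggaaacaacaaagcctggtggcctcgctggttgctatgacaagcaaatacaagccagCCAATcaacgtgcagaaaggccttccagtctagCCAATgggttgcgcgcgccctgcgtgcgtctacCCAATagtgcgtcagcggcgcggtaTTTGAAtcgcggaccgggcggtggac
Mcm3 held E2F-type matches at 80 bases (opposite strand) and 61 bases (same strand) before the start site, and Mcm4 at 78 bases before it and, outside the stretch, at 224 bases before it. Rrm2 and Ccna2 held a single NF-Y-type match and none of the other letters in the stretch, and Ccnb2 held 3 NF-Y-type matches and a CHR match 5 bases into the gene, with another CHR match outside the stretch, 167 bases before the start site. A match is a description of letters, and binding was not measured.

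**Figure D3:**
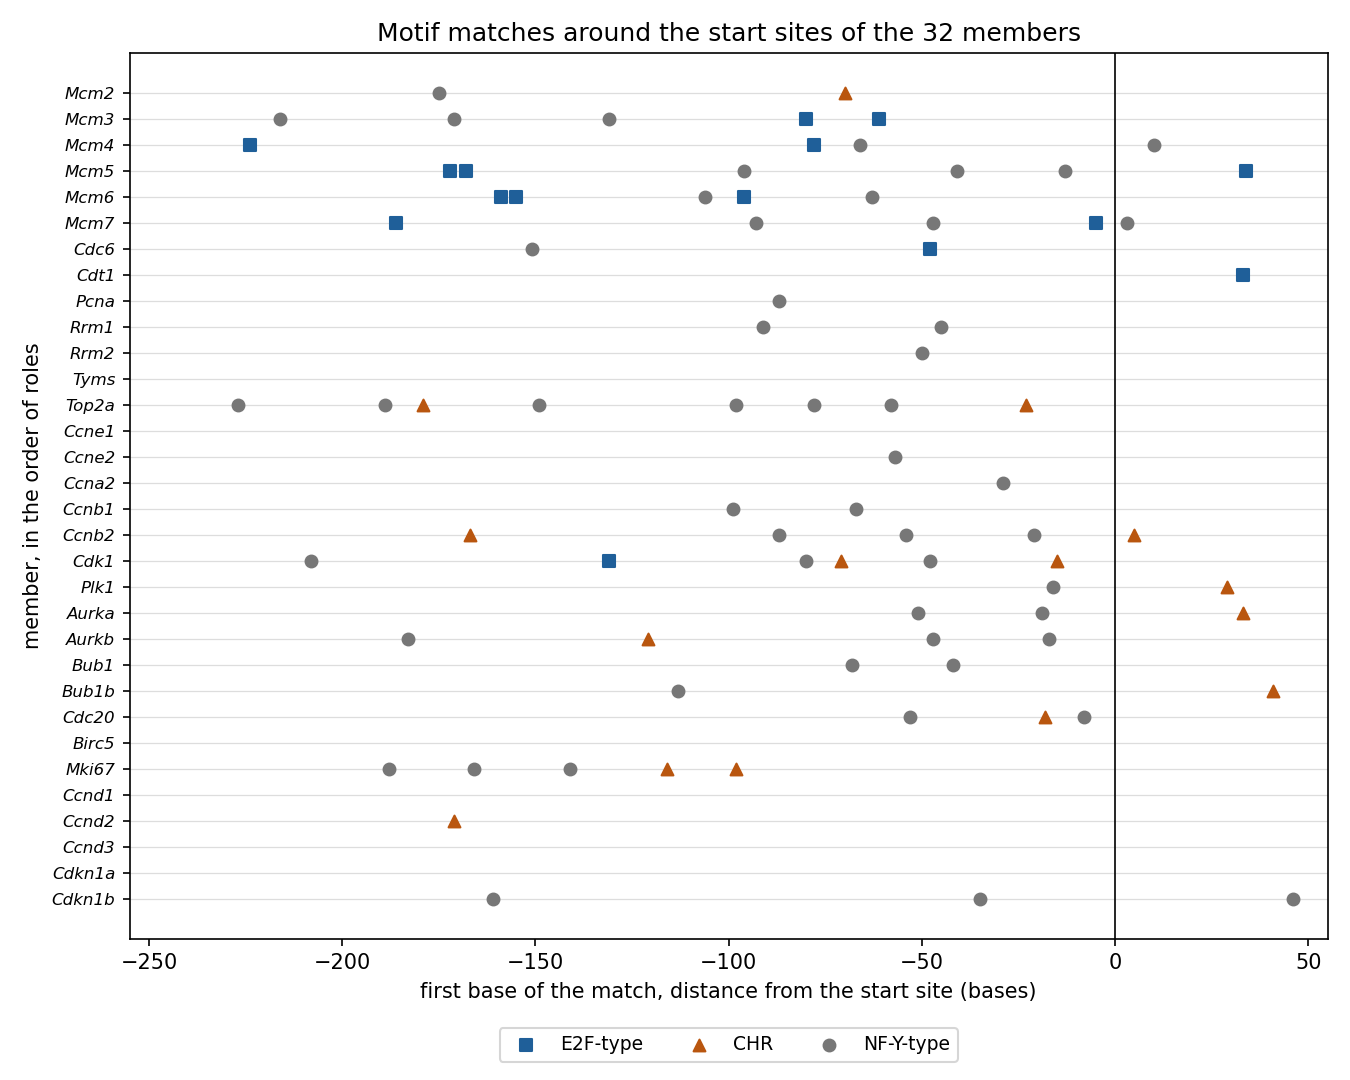
Position of the first base of each motif match relative to the start site (0, in bases) for the 32 members in the order of their roles. Matches of the E2F type were in 8 members, 7 of them licensing genes; 11 members held the CHR and 24 the NF-Y type.

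Mcm3 (mm9, chr1:20793095-20810294) stood at 193 and 158 CPM in vehicle replicates 2 and 3 and at 322 and 280 CPM in SR-3420 replicates 1 and 3. It was at 219, 228 and 203 CPM with TC and 409, 394 and 339 CPM with TC+SR-3420. With ETO it was at 196, 180 and 136 CPM, and with ETO+SR-3420 at 332, 339 and 246 CPM. In each arm all samples with SR-3420 lay above all samples without it. The log2 fold changes were 0.78 (SE 0.20), 0.82 (SE 0.16) and 0.84 (SE 0.16), with adjusted p of 0.0324, 0.00171 and 0.00243 in edgeR (quasi-likelihood, Benjamini-Hochberg). The first call was lost without any 1 of its 4 samples, with values of 0.65 to 0.93, and those under TC and ETO held without any 1 of their 6.

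Mcm4, another helicase subunit, differed little between replicates. It was at 206 and 213 CPM with vehicle, and at 239 and 260 CPM with SR-3420 alone. With TC it was at 217, 216 and 222 CPM, and with TC+SR-3420 at 311, 322 and 342 CPM. With ETO it was at 193, 195 and 221 CPM, and with ETO+SR-3420 at 280, 312 and 298 CPM. The groups did not overlap in any arm. The increase was called under TC (0.57, SE 0.10) and under ETO (0.55, SE 0.10), with adjusted p of 5.3e-04 and 0.0013 in edgeR (quasi-likelihood, Benjamini-Hochberg), and without inhibitor the value was 0.25 (SE 0.12) and not called. The difference between the responses under TC and without inhibitor was 0.32 (SE 0.15, adjusted p 0.315 by the same edgeR test), so the arms were not shown to differ. With the GC offset this difference was 0.066 (SE 0.19, adjusted p 0.864, edgeR).

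Mcm6 was called under TC (0.57, SE 0.14) and under ETO (0.52, SE 0.14), and Mcm7, Cdc6 and Cdt1 under ETO (0.40, SE 0.12; 0.96, SE 0.28; 0.96, SE 0.29). Under ETO the Mcm6 call was lost without ETO replicate 1 (0.45) or ETO+SR-3420 replicate 2 (0.40), and the Cdc6 call without either of these (0.80 and 0.76) or ETO+SR-3420 replicate 3 (0.90). The Mcm7 and Cdt1 calls were lost without ETO replicate 2 (0.40 and 0.94), ETO replicate 3 (0.32 and 0.76), ETO+SR-3420 replicate 1 (0.32 and 0.69) or ETO+SR-3420 replicate 2 (0.37 and 0.98). Mcm7 and Cdt1 overlap other gene models in the annotation, so part of their reads may belong to those. Cdt1, the loader that is destroyed once replication starts, was at 131, 96.7 and 71.0 CPM in ETO replicates 1 to 3 and at 258, 188 and 134 CPM in ETO+SR-3420 replicates 1 to 3. Replicate 1 was highest and replicate 3 lowest in both groups, which did not overlap. Under TC its log2 fold change was 0.77 (SE 0.29, adjusted p 0.0519 in edgeR (quasi-likelihood, Benjamini-Hochberg)) and not called, and with the GC offset it was 1.04 (SE 0.094, adjusted p 4.59e-07). Without inhibitor Cdt1 was at 124 and 86.0 CPM with vehicle and 262 and 163 CPM with SR-3420. That log2 fold change was 1.02 (SE 0.36, adjusted p 0.104, edgeR) and not called, and with the GC offset 0.79 (SE 0.11, adjusted p 2.25e-04, edgeR).

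Mcm2, whose transcript holds 55.5% G and C, was at 342 and 228 CPM with vehicle and 647 and 390 CPM with SR-3420. It was at 365, 274 and 190 CPM with ETO and 560, 427 and 285 CPM with ETO+SR-3420. The groups without inhibitor did not overlap, and under ETO the lowest treated sample, replicate 3, lay below ETO replicate 1. The log2 fold changes were 0.86 (SE 0.36), 0.52 (SE 0.29) and 0.62 (SE 0.29) in the 3 arms, and none was called. With the GC offset they were 0.72, 0.75 and 0.66, with adjusted p of 0.00785, 3.99e-04 and 0.00153 in the edgeR fit. Mcm5 had a value of 0.68 under ETO (SE 0.28, not called; 0.74 with the offset, adjusted p 0.00823, edgeR).

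**Figure D4:**
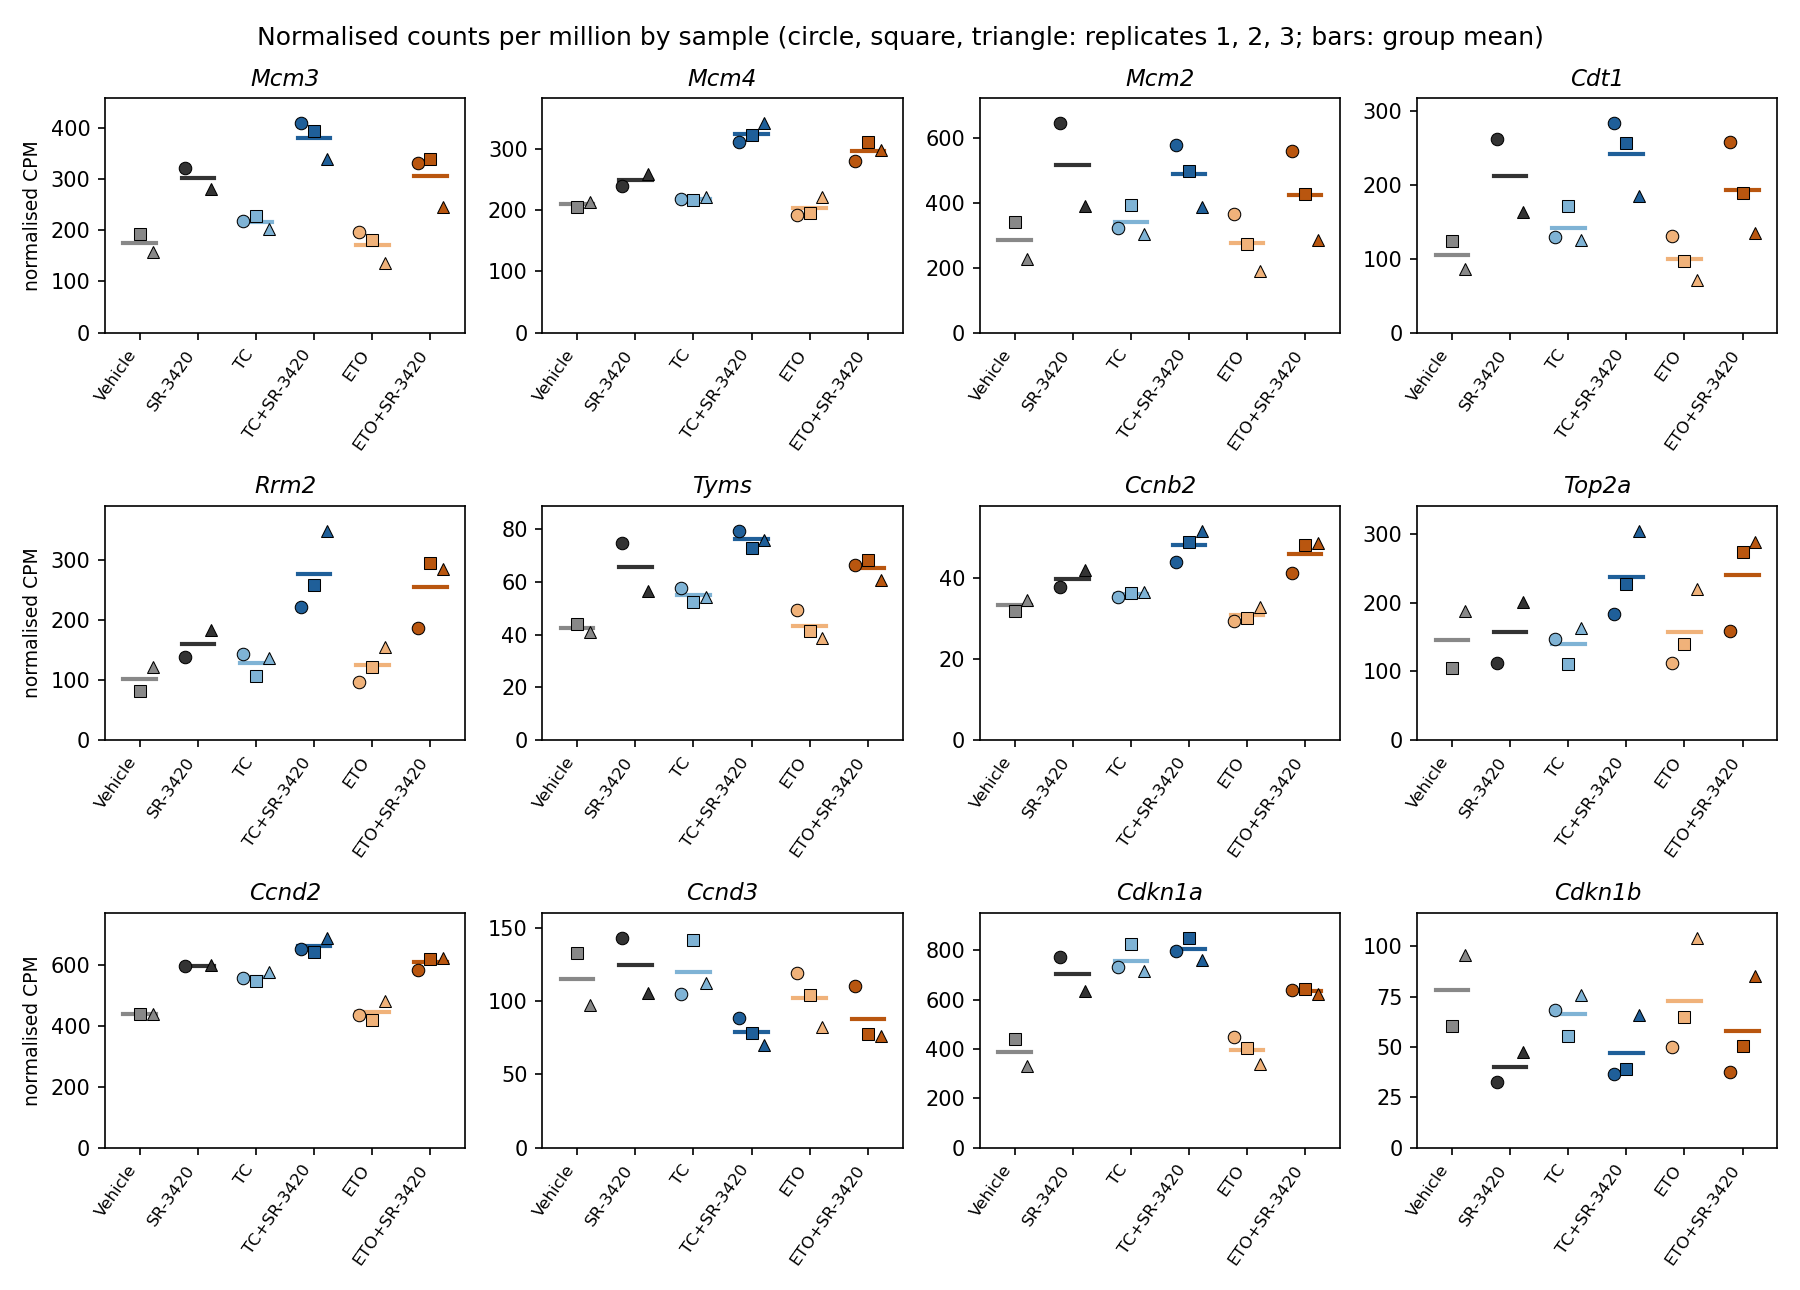
TMM-normalised CPM of 12 members in each of the 16 samples (circles, squares and triangles are replicates 1, 2 and 3) with the mean of each group as a bar. Mcm3 lay between 280 and 322 CPM with SR-3420 alone, above the vehicle samples at 158 and 193 CPM, while Top2a at 188 CPM in vehicle replicate 3 lay above SR-3420 replicate 1 at 113 CPM.

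Of the 5 members of DNA synthesis and nucleotide supply, 1, 2 and 2 were called higher in the 3 arms (4.75%, 17.3% and 12.5% of all genes). The median log2 fold changes were 0.63, 0.47 and 0.59. Rrm2, the regulatory subunit of ribonucleotide reductase, had the highest log2 fold change of the 32 members under both inhibitors without the GC offset; with it, under TC, Cdt1 (1.04) and Mcm3 (0.98) were above Rrm2 (0.95). Rrm2 was at 82.4 and 121 CPM with vehicle and 138 and 182 CPM with SR-3420, and at 144, 106 and 136 CPM with TC and 221, 258 and 348 CPM with TC+SR-3420. It was at 96.6, 122 and 155 CPM with ETO and 186, 294 and 284 CPM with ETO+SR-3420. No treated sample overlapped its controls in any arm. The log2 fold change was 1.1 (SE 0.25) under TC and 1.04 (SE 0.25) under ETO, with adjusted p of 0.00345 and 0.00753 in edgeR (quasi-likelihood, Benjamini-Hochberg). Without inhibitor it was 0.66 (SE 0.30, not called), and with the GC offset 0.76 (adjusted p 0.00241, edgeR). Without the offset, no other call of a member in the SR-3420 comparisons or with an inhibitor alone passed a log2 fold change of 1 as well. With it, those of Cdt1 under TC (1.04, adjusted p 4.59e-07, edgeR) and Rrm2 under ETO (1.01) did.

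Tyms, which makes thymidylate, was at 44.0 and 41.0 CPM with vehicle and 74.8 and 56.5 CPM with SR-3420. It was at 57.8, 52.5 and 54.4 CPM with TC and 79.5, 73.1 and 76.0 CPM with TC+SR-3420, and at 49.6, 41.3 and 38.8 CPM with ETO and 66.5, 68.3 and 60.6 CPM with ETO+SR-3420. Treated samples were above controls throughout. The log2 fold changes were 0.63 (SE 0.16), 0.47 (SE 0.13) and 0.59 (SE 0.13), called in each arm by edgeR with adjusted p of 0.0300, 0.0111 and 0.00473. The call without inhibitor was lost without vehicle replicate 2 (0.68), vehicle replicate 3 (0.58) or SR-3420 replicate 1 (0.41), and the call under TC with the GC offset (0.36, SE 0.19, adjusted p 0.119). Tyms overlaps a gene model on the other strand in the annotation, and whether the counting used strand is not given in the sources used here.

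Pcna, the sliding clamp of DNA polymerase, was at 210 and 131 CPM with vehicle and 420 and 201 CPM with SR-3420, so the groups overlapped. Its log2 fold changes of 0.87 (SE 0.41), 0.31 (SE 0.33) and 0.56 (SE 0.33) were not called in edgeR. Top2a, which untangles replicated DNA, was at 147, 111 and 164 CPM with TC and 183, 227 and 305 CPM with TC+SR-3420. These groups did not overlap, yet the value of 0.76 (SE 0.33) was not called; with the GC offset it was 0.57 (SE 0.13, adjusted p 0.00166, edgeR). Under ETO its groups overlapped, with 220 CPM in ETO replicate 3 and 159 CPM in ETO+SR-3420 replicate 1. The value there was 0.61 (SE 0.33) and not called, and with the GC offset 0.59 (SE 0.13, adjusted p 0.00168, edgeR). Without inhibitor the Top2a groups overlapped and the value was 0.10 (SE 0.405), or 0.29 with the GC offset, called in neither fit.

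Of the 6 members that are E-, A- and B-type cyclins or their kinase Cdk1, 0, 3 and 2 were called higher in the 3 arms (4.75%, 17.3% and 12.5% of all genes). The median log2 fold changes were 0.18, 0.46 and 0.49. Ccnb2, a B-type cyclin that drives entry into mitosis, was at 35.2, 36.3 and 36.5 CPM with TC and 43.8, 49.0 and 51.7 CPM with TC+SR-3420. It was at 29.4, 30.1 and 32.8 CPM with ETO and 41.2, 48.0 and 48.7 CPM with ETO+SR-3420. Neither pair of groups overlapped, and the log2 fold changes were 0.42 (SE 0.11) and 0.58 (SE 0.11), with adjusted p of 0.0103 and 0.00234 in edgeR (quasi-likelihood, Benjamini-Hochberg). Ccna2, the cyclin of S and G2 phase, was called under TC (0.41, SE 0.15) and ETO (0.50, SE 0.15), and Ccnb1 under TC (0.65, SE 0.24). The TC calls of Ccna2 and Ccnb1, with adjusted p of 0.0476 and 0.0460 in edgeR, were lost without any 1 of the 6 samples (values of 0.33 to 0.47 and 0.46 to 0.77). The ETO call of Ccna2 was lost without ETO replicate 1 (0.42), ETO replicate 2 (0.43), ETO+SR-3420 replicate 2 (0.48) or ETO+SR-3420 replicate 3 (0.44). Ccna2 and Ccne2 overlap neighbouring genes of the table (Exosc9 and Ints8), so part of their reads may belong to those.

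Cdk1, the kinase of the B-type cyclins, had values of 0.51 (SE 0.20) under TC and 0.47 (SE 0.20) under ETO, with adjusted p of 0.0557 and 0.0953 in edgeR, and its groups did not overlap in either arm. With the GC offset both were called (adjusted p 0.00821 and 0.00533). Without inhibitor the Cdk1 groups overlapped and the value was 0.095 (SE 0.24), or 0.14 with the GC offset, called in neither fit. Ccne2, an E-type cyclin, ran from 4.74 CPM in ETO replicate 1 to 24.4 CPM in ETO replicate 3 and from 5.62 to 28.5 CPM in ETO+SR-3420 replicates 1 and 3. Replicates within a group thus differed more than the groups.

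Of the 8 mitotic kinases, checkpoint genes and the proliferation marker Mki67, 0, 2 and 3 were called higher, where 4.75%, 17.3% and 12.5% of all genes were. The median log2 fold changes were 0.21, 0.33 and 0.45. Bub1b, a spindle checkpoint kinase, rose under TC (0.41, SE 0.11) and ETO (0.39, SE 0.11), as did Birc5 (survivin), a subunit of the chromosomal passenger complex (0.45, SE 0.16; 0.69, SE 0.16), and Aurka, a kinase of the spindle poles, under ETO (0.34, SE 0.11). The ETO call of Bub1b was lost without ETO replicate 1 (0.36) or ETO+SR-3420 replicate 2 (0.33). The TC call of Birc5 held only without TC+SR-3420 replicate 1 and the Aurka call only without ETO+SR-3420 replicate 1; without any other 1 sample they were lost, at values of 0.41 to 0.49 and 0.28 to 0.39. Birc5 was at 19.4, 23.0 and 27.3 CPM with ETO and 30.5, 45.0 and 37.0 CPM with ETO+SR-3420, without overlap. Mki67 was at 163, 119 and 170 CPM with TC and 178, 215 and 283 CPM with TC+SR-3420, and at 117, 162 and 226 CPM with ETO and 183, 275 and 286 CPM with ETO+SR-3420. The TC groups did not overlap and the ETO groups did. Its values of 0.58 (SE 0.30) and 0.56 (SE 0.30) were not called in edgeR (adjusted p 0.143 and 0.191) and were with the GC offset (adjusted p 0.0492 and 0.0239). Without inhibitor its groups overlapped and its value was 0.0097 (SE 0.36), or 0.084 with the GC offset, called in neither fit.

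The D cyclins link growth signals to the cycle. Ccnd2 was at 436 and 438 CPM with vehicle and 594 and 598 CPM with SR-3420. It was at 555, 546 and 577 CPM with TC and 651, 641 and 687 CPM with TC+SR-3420, and at 435, 419 and 480 CPM with ETO and 582, 618 and 622 CPM with ETO+SR-3420. No groups overlapped between treated and control samples. It was called without inhibitor (0.45, SE 0.12) and under ETO (0.45, SE 0.094), with adjusted p of 0.0335 and 0.00384 in edgeR (quasi-likelihood, Benjamini-Hochberg), and not under TC (0.24, SE 0.094; 0.18 with the GC offset, adjusted p 0.0458). The call without inhibitor was lost without any 1 of its 4 samples, at values of 0.44 to 0.45, and that under ETO held without any 1 of its 6. A noncoding gene overlaps Ccnd2 on the other strand. Ccnd1 was called in none of the arms, and with the GC offset under ETO (0.32, adjusted p 0.0150, edgeR). It overlaps Oraov1 on the other strand.

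Ccnd3 was called lower under TC. It was at 105, 141 and 112 CPM with TC and 88.1, 78.2 and 70.2 CPM with TC+SR-3420. The groups did not overlap, and the log2 fold change was -0.60 (SE 0.20, adjusted p 0.0342 in edgeR). It was -0.32 with the GC offset (adjusted p 0.00522), and the call was lost without TC replicate 2 (-0.46), TC replicate 3 (-0.64), TC+SR-3420 replicate 2 (-0.54) or TC+SR-3420 replicate 3 (-0.52) where no offset was used. The difference from the response without inhibitor was -0.71 (SE 0.32, adjusted p 0.287, edgeR), and with the GC offset -0.22 (SE 0.14, adjusted p 0.328, edgeR). Without inhibitor the value was 0.11, and -0.10 with the offset, not called in either fit. Under ETO the value was -0.21 and not called, and with the offset -0.22 and called (adjusted p 0.0444, edgeR). Ccnd3 overlaps Bysl on the other strand.

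The CDK inhibitors differed from each other. Cdkn1a (p21; mm9, chr17:29227931-29237667), a p53 target that blocks cyclin-dependent kinases, was per length of counted sequence the most abundant member in the vehicle samples, at 199 ± 40.1 CPM per kb (SD, n = 2), followed by Pcna at 135 ± 44.1, which overlapped it within 1 SD of each. Bub1 had the lowest mean, at 2.79 ± 1.85 CPM per kb, and Cdc6 (3.35 ± 0.79) and Ccnb1 (4.57 ± 0.17) lay within 1 SD of it. Cdkn1a was at 441 and 331 CPM with vehicle and 775 and 633 CPM with SR-3420, and at 450, 403 and 339 CPM with ETO and 640, 643 and 622 CPM with ETO+SR-3420. Treated samples were above their controls in both arms. The log2 fold changes were 0.87 (SE 0.17) and 0.68 (SE 0.14), with adjusted p of 0.00873 and 0.00364 in edgeR (quasi-likelihood, Benjamini-Hochberg). The first call was lost without vehicle replicate 3 (0.68) or SR-3420 replicate 1 (0.72), and the call under ETO held without any 1 of its 6 samples.

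With TC alone Cdkn1a was already at 731, 828 and 715 CPM, and with TC+SR-3420 it was at 798, 850 and 763 CPM, with overlapping groups. The SR-3420 response under TC was 0.084 (SE 0.14) and not called, and with the GC offset 0.32 (adjusted p 0.00955, edgeR). Without the offset, its difference from the response without inhibitor was -0.78 (SE 0.22, adjusted p 0.0861 in edgeR), which did not pass the threshold. With the offset the difference was -0.45 (SE 0.15, adjusted p 0.0600, edgeR).

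Cdkn1b (p27), whose transcript holds 43.1% G and C, was at 60.7 and 95.9 CPM with vehicle and 32.6 and 47.3 CPM with SR-3420. It was at 68.2, 55.5 and 76.0 CPM with TC and 36.4, 38.9 and 66.0 CPM with TC+SR-3420, and at 49.8, 65.1 and 104 CPM with ETO and 37.5, 50.5 and 85.5 CPM with ETO+SR-3420. Replicate 3 was highest in every group, and only the groups without inhibitor did not overlap. The log2 fold changes of -0.97 (SE 0.43), -0.50 (SE 0.35) and -0.34 (SE 0.35) were not called. With the GC offset they were -0.76, -0.71 and -0.38, and all were called (edgeR, adjusted p 0.00172, 1.31e-04 and 0.0161). Without ETO replicate 3 the value under ETO was 0.0086.

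The inhibitors alone moved few members. TC against vehicle gave 2 calls, both higher, where 4.77% of all genes were called higher and 6.94% lower: Cdkn1a (0.97, SE 0.16, adjusted p 0.0014) and Ccnd2 (0.35, SE 0.11, adjusted p 0.0460, edgeR). The Cdkn1a call held without any 1 of the 5 samples. The Ccnd2 call was lost without any 1 of them, which leaves 1 call in each case. The members' median was 0.094, against 0.072 for all genes. Cell type markers moved too: edgeR called 3 of 14 brown adipocyte markers lower (Pparg, Ppara and Ppargc1a), 1 of 2 macrophage markers higher (Cd68, at 4.9 and 3.23 CPM with vehicle and 14.8, 16.5 and 15.2 CPM with TC) and 1 of 5 smooth muscle markers higher (Cnn1). ETO against vehicle gave 0 calls among the members and 0.0235% of all genes (edgeR), with 0 members at an unadjusted p under 0.05 (283 of 12786 genes) and 0 called by DESeq2 (17 of 11298 genes); the members' median was -0.046.

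Adding an inhibitor to the ligand was compared with the ligand alone. These comparisons share the SR-3420 samples. TC+SR-3420 against SR-3420 gave 0 calls, where 4.58% of all genes were called; 8 members had an unadjusted p under 0.05 in edgeR (2494 of 12786 genes), and DESeq2 called 2 (1230 of 12042 genes). The GC offset gave 9 calls (8 higher), against 18.6% of all genes. In this comparison edgeR, without the offset, called 6 of 14 brown adipocyte markers lower, with a median of -1.04 over the list. ETO+SR-3420 against SR-3420 gave 0 calls and 0.00782% of all genes, with 4 members at an unadjusted p under 0.05 in edgeR (1279 of 12786 genes) and 0 called by DESeq2 (90 of 12538 genes). The members' medians were 0.21 and 0.10, and that of the brown adipocyte markers with ETO+SR-3420 was -0.44.

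The responses to SR-3420 were also compared between arms. The difference of the TC arm from the arm without inhibitor was called for 0 members, where 2.51% of all genes were called; 2 members had an unadjusted p under 0.05 in edgeR (2130 of 12786 genes), and DESeq2 called 1 (832 of 12786 genes). Of the markers, edgeR called 1 of 14 of brown adipocytes (Ppara) and 1 of 2 of macrophages (Cd68), both lower. For the ETO arm it was called for 0 members and 0% of all genes in edgeR, with 0 at an unadjusted p under 0.05 (307 of 12786 genes) and 0 called by DESeq2 (9 of 12786 genes). The higher counts of calls under the inhibitors were thus not shown to be different responses, and the arm without inhibitor had 2 samples a group.

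Genes of the pathway were also counted by list. The p53 list includes the member Cdkn1a and the quiescence list the member Cdkn1b, and some genes, such as Btg2 and Rbl2, stand in several lists. Each further gene named from these lists was called, with an adjusted p of 0.0405 or lower in edgeR. Of 49 tested further replication genes, edgeR called 2, 19 and 14 higher with SR-3420 in the no-inhibitor, TC and ETO arms and 0 lower in each, with medians of 0.18, 0.48 and 0.36. Of 58 further mitotic genes it called 0, 11 and 13 higher and 0 lower, with medians of 0.12, 0.46 and 0.47. Of all genes tested, 4.75%, 17.3% and 12.5% were called higher in these arms and 2.79%, 19.7% and 12.8% lower. Mcm10, a replication initiation factor, was at 52.7 ± 5.81 CPM (SD, n = 3) with TC+SR-3420 and 28.8 ± 7.13 CPM (SD, n = 2) with SR-3420, a log2 fold change of 0.87 (SE 0.19), in the comparison in which 6 of 14 brown adipocyte markers were called lower. There 3 of the 49 replication genes were called higher and 0 lower, against 4.58% of all genes in either direction.

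Of 46 tested regulators of the G1 to S transition, 1, 13 and 11 were called higher and 2, 4 and 3 lower with SR-3420, against 4.75%, 17.3% and 12.5% higher and 2.79%, 19.7% and 12.8% lower among all genes. Myc, a growth-promoting transcription factor, was at 88.2 ± 11.1 CPM with vehicle and 362 ± 18.5 CPM with SR-3420 (SD, n = 2 each), a log2 fold change of 2.04 (SE 0.19). It rose by 1.89 (SE 0.16) under TC and 2.32 (SE 0.16) under ETO. Rbl2 (p130), which holds E2F genes silent in resting cells, fell by 0.75 (SE 0.17) with SR-3420 and by 1.14 (SE 0.15) with TC alone. Cdkn2b (p15), an inhibitor of Cdk4 and Cdk6, fell by 1.04 (SE 0.24) with SR-3420 under TC, while Btg2, an antiproliferative gene, rose by 1.48 (SE 0.24). With TC alone Cdk6 fell by 1.32 (SE 0.23) and Tfdp2, an E2F partner, by 1.05 (SE 0.25). There 1 of the 46 was called higher and 4 lower, against 4.77% and 6.94% of all genes. E2f2 was lower in TC+SR-3420 than in SR-3420, with a log2 fold change of -0.60 (SE 0.15). In that comparison 1 of the 46 was called higher and 1 lower, against 4.58% of all genes in either direction.

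Of 30 tested p53 pathway genes, 6, 8 and 11 were called higher and 1, 6 and 5 lower with SR-3420, and 7 higher and 1 lower with TC alone. These counts include the calls of the member Cdkn1a without inhibitor, under ETO and with TC alone. Among all genes the shares were 4.75%, 17.3% and 12.5% higher and 2.79%, 19.7% and 12.8% lower with SR-3420, and 4.77% higher and 6.94% lower with TC alone. The stress kinases Plk3 (2.28, SE 0.23, no inhibitor) and Plk2 (1.82, SE 0.17, TC; 2.32, SE 0.18, ETO) rose, as did Ddit4, an inhibitor of mTORC1 (2.13, SE 0.38, no inhibitor; 2.67, SE 0.32, ETO). Sesn1 fell by 1.17 (SE 0.17) without inhibitor and by 0.97 (SE 0.14) under ETO, Trp53inp1 by 1.32 (SE 0.46) and Phlda3 by 1.17 (SE 0.31) under TC, and the repair gene Xpc by 1.03 (SE 0.16) under ETO. With TC alone Gadd45a rose by 1.46 (SE 0.22), Gadd45b by 1.24 (SE 0.29) and Plk3 by 1.67 (SE 0.21). Gadd45a and Plk2 were higher in TC+SR-3420 than in SR-3420, by 0.91 (SE 0.21) and 1.29 (SE 0.19). In that comparison 3 of the 30 were called higher and 0 lower, against 4.58% of all genes in either direction.

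Of 12 genes of quiescence and FOXO-driven arrest, the member Cdkn1b among them, 0, 1 and 2 were called higher and 2, 2 and 3 lower with SR-3420. With TC alone 0 were called higher and 3 lower. The shares of all genes were 4.75%, 17.3% and 12.5% higher and 2.79%, 19.7% and 12.8% lower with SR-3420, and 4.77% higher and 6.94% lower with TC alone. Foxo4 fell by 0.62 (SE 0.13) without inhibitor, and Pik3ip1, an inhibitor of PI3 kinase, fell by 0.72 (SE 0.22) under ETO.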

How the data were processed

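RNA was measured in 16 samples of 6 groups, mapped by their labels. The authors aligned reads to mm9 with STAR 2.4.2a, removed repeats of reads that shared both position and length (HOMER), counted reads per gene with iRNA-seq and deposited whole-number counts without normalization; the submitters' processing notes name STAR and HOMER. Removing reads at the same position can lower abundant short genes. Counts were fitted here with edgeR 4.0.16 in R 4.3.3 (TMM, filterByExpr, quasi-likelihood test, 1 model of 6 group means, Benjamini-Hochberg over 12786 genes). Standard errors came from the log2 fold change and the F statistic. Other pathway genes were named where the adjusted p was under 0.05, groups did not overlap and the mean normalized count was at least 50, at most 3 per direction and comparison by size of log2 fold change; which values of the 32 members to print was decided after they were seen. The members and lists were chosen with earlier results of these data known.

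Alternatives were DESeq2 1.42.0 size factors and Wald test, no filter, a minimum of 10 counts per sample, a fit to the groups under comparison alone, a term for replicate number, each sample left out, and a log2 fold change of at least 1. Added after seeing the data were an offset from a spline of 5 degrees of freedom on transcript GC content (found for 97.95% of genes, GENCODE M1), the same with the replicate number, and removal of a pair of libraries. The edgeR fit, alone and with the replicate number or the GC offset, and the DESeq2 test were tried on simulated counts for the SR-3420 comparisons. The counts given to the fit with the replicate number held no replicate effect, and the other steps were not simulated. Table starts count from 0 (57.4% of starts plus 1 met an annotated transcript start, 3.66% did so unshifted), so 1 was added. Replicate pairs differed by more than sampling noise (chi-square per degree of freedom 4.37 or more). Vehicle replicate 1 and SR-3420 replicate 2 were not analysed here. Counting error is largest for the lowest members, such as Ccne2 with 72 counts in its lowest library. Figures used matplotlib 3.10.9.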

Additional observations from a re-analysis of the deposited data

How the results depend on the processing

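The 51 values of single members followed here were chosen after the values were seen and include every call of the main fit. All 51 kept their direction under each setting that changed normalization, tool, filter, samples fitted, the replicate number or GC content. Values outside this set could reverse: that of Ccnd3 without inhibitor was 0.11, and -0.10 with the GC offset. Leaving out a sample kept the direction in all but 1 of 292 cases: that of Cdkn1b with SR-3420 under ETO, which was 0.0086 without ETO replicate 3 and -0.73 without ETO+SR-3420 replicate 3. Calls of single members were lost in 63 of those 292 cases and gained in 4.

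Counts of members called were less stable. Without a filter there were 2 for SR-3420 against vehicle (700 of 18777 genes) and 1 for TC against vehicle (1271 of 18777 genes). Fitted on the compared groups alone they were 0 (SR-3420), 20 (SR-3420 under TC), 2 (SR-3420 under ETO) and 1 (TC), with 46 of 12162, 5603 of 12195, 1205 of 12167 and 1475 of 12371 genes called. DESeq2 size factors gave 1 for TC (1521 of 12786 genes). DESeq2's Wald test gave 2 for TC+SR-3420 against SR-3420 (1230 of 12042 genes) and 1 for the difference of the TC arm (832 of 12786 genes). The stricter count filter gave 1 for TC+SR-3420 against SR-3420 (617 of 11256 genes). Requiring a log2 fold change of at least 1 gave 0, 1, 1 and 0 for SR-3420, SR-3420 under TC, SR-3420 under ETO and TC. At that threshold 430, 1893, 1136 and 705 of 12786 genes were called. Removing ETO replicate 3 and ETO+SR-3420 replicate 3, the libraries that lean most to low GC content, gave 1 for TC and 1 for TC+SR-3420 against SR-3420. These fits called 1953 and 842 of 12752 genes. The GC offset gave 10, 26 and 28 for SR-3420 in the 3 arms and 9 for TC+SR-3420 against SR-3420, with 3039, 7042, 5945 and 2349 of 12641 genes called. Fewer samples or genes enter some of these fits; otherwise the cause was not tested.

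The replicate number as a block gave 12, 23 and 27 for SR-3420 in the 3 arms, 8 for TC+SR-3420 against SR-3420, 7 for ETO+SR-3420 against SR-3420 and 1 for the difference of the TC arm, with 2438, 7185, 5776, 3008, 1838 and 1669 of 12786 genes called. With the block Mcm2 was called higher in each of the 3 arms (0.75, 0.49 and 0.61), and Pcna without inhibitor (0.70) and under ETO (0.57). Cdkn1b was called lower without inhibitor (-0.90) and under TC (-0.55), as was the difference of the TC arm for Cdkn1a (-0.81). Block and GC offset together gave 17, 29, 29, 11, 3 and 1 for these, and 6 for TC, with 4207, 8069, 7252, 3944, 1733, 2670 and 4570 of 12641 genes called. Whether numbers pair samples is not settled: same-numbered samples of different groups had a mean correlation of deviations of 0.41 (35 pairs, 27 of them over 0.1, lowest -0.29) and different-numbered ones of -0.20 (71 pairs), and 10 of 16 samples correlated best with their own number. Deviations were taken from the mean of each group and so cancel within it, which ties these means to each other, and the pairs are not independent.

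Leaving out each sample in turn gave 0 to 2 calls for SR-3420, 7 to 10 under TC, 8 to 15 under ETO, 1 to 1 for TC and 0 to 0 in the other comparisons. Depth limits the lowest members most: Ccne2 had 72 counts in its lowest library. Where a vehicle or SR-3420 sample is left out, the lone sample of its group is assumed to vary like the other groups.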
